A study of Mus musculus with 4 samples.

Results

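Sites bound by POU2F3 around the Sox9 gene were described in tuft cells of the mouse small intestine. A site belonged to the set when its midpoint lay on chromosome 11 between positions 112000000 and 113000000 of the mm9 build, and 12 of the 2828 sites in the authors' list did so. The region was chosen by the number of sites it holds and by their closeness to one another, in an earlier look at this list, so the number of sites, the gaps between them and the run of 7 close sites are descriptions, with no test. The cells were sorted by CD45, EpCAM and Siglec F from the uppermost 5 cm of small intestine in C57BL/6J males. All groups share this source, the labels name no allele or treatment, and the replicates are given as 2 pools of cells from 3 mice. The groups were 2 samples of chromatin precipitated with an antibody against POU2F3, 1 sample with a control IgG and 1 of input DNA. The values come from 1 list of sites for the whole series, so no site has a value per sample, a replicate error or a depth, and the level at these sites in IgG and input was not analysed here. Whether the sorted cells carried the defining markers of tuft cells could not be checked, because no expression was analysed here.

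POU2F3 is a transcription factor with a POU domain, a paired DNA-binding fold that recognises the octamer element, and mice without it lack tuft cells. SOX9 is a transcription factor of the SRY-related HMG-box family. In the intestine it is known from the stem and progenitor cells of the crypt base, from Paneth cells, which need it to form, and from tuft cells. Sox9 lies in a gene-poor stretch, and some of the elements known to control it in cartilage and testis lie far from the gene. How much Sox9 the sorted cells made was not analysed here, so a site near Sox9 is not shown to act on it.

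No POU2F3 site lay in the Sox9 gene (gene identifier 20682). The gene body was taken as 112.643 to 112.649 Mb on chromosome 11 of mm9, known to the nearest kilobase, and distances below run from its nearer end to the nearer edge of a site. Of the 12 sites, 10 lay downstream of the gene and 2 upstream. The nearest, at 112672155 to 112672573, began 23.2 kb beyond the end of the gene. On the other side the nearest was 208 kb away, at 112434183 to 112434757. The gene therefore stood in a stretch of 237 kb without a listed site, and its downstream end was much the closer to POU2F3 sites. A stretch of that length is ordinary here, since the median gap between adjacent sites of the list was 255 kb. In the gene table, which is of the GRCm38.p6 assembly and was used for names and order only, the protein-coding genes before Sox9 were Kcnj16, Kcnj2 and Gm11677. Those after it were Slc39a11, Sstr2 and Cog1. Kcnj2 and Kcnj16 encode inwardly rectifying potassium channels, Slc39a11 a zinc transporter and Sstr2 a somatostatin receptor. Between Gm11677 and Sox9 the table listed 3 long noncoding RNAs, and between Sox9 and Slc39a11 it listed 9, of which the first was Gm11681. Which of them the sites touch was not analysed here, because no mm9 annotation was used.

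**Figure D1:**
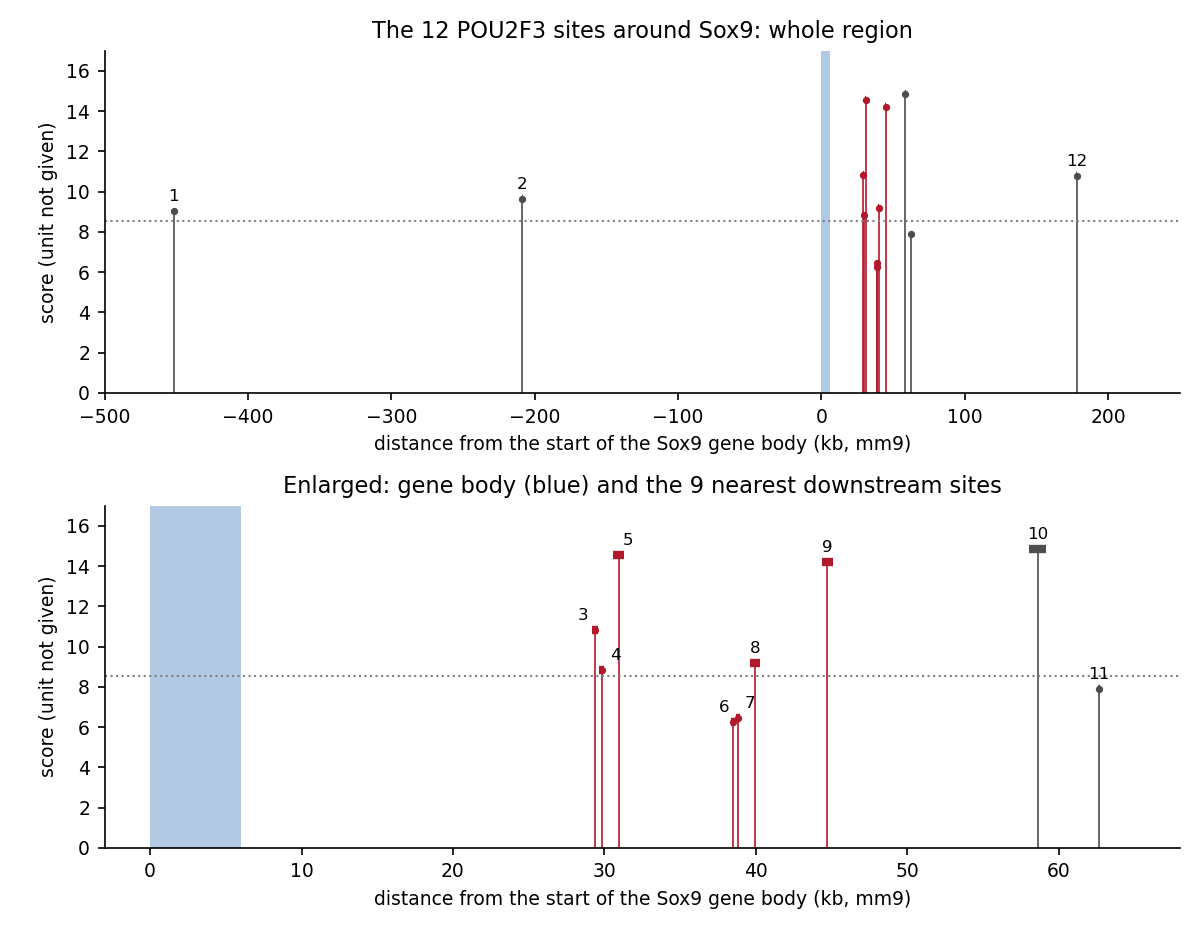
Score of each of the 12 sites (vertical axis, the authors' value, unit not given) against distance in kb from the start of the Sox9 gene body in mm9, numbered along the chromosome, with the whole region above and the gene with its 9 nearest downstream sites below. Horizontal bars show site width, red marks the chain of 7, blue the gene body and the dotted line the median score of all 2828 sites. The gene body is empty, and sites 5, 9 and 10 stand above 14.

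The downstream sites nearest to Sox9 came in a dense run. Starting 23.2 kb past the gene, 9 sites, or 75% of the set, lay within 33.6 kb, from 112672155 to 112705719, which is 3.36% of the window. Sites 3 to 9, counted along the chromosome, formed the chain of 7, that is, sites with gaps of at most 10 kb between them, over 15.9 kb. That chain broke up further at a gap of 1 kb, into 3 sites, 3 sites and 1 site. The first 3 fell within 2.16 kb, the next 3 within 1.91 kb, and the distances between these groups were 7073 bp and 4079 bp. Sites 10 and 11 followed the chain after 12989 bp. Of the 11 gaps between members, 4 were up to 1 kb and 2 were under 100 bp. Over the whole list, 11.4% of the 2806 gaps between adjacent sites were up to 1 kb and 5.38% up to 100 bp, and the median gap was 255 kb.

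The first group held sites 3, 4 and 5. Site 3 was 419 bp wide with a score of 10.8, the 457th highest of the list. Only 82 bp separated it from site 4, at 112672656 to 112672974, which was 319 bp wide with a score of 8.84. Site 5, at 112673569 to 112674316, came 594 bp further on, was 748 bp wide, and had a score of 14.6. It ranked 63rd of 2828 by score and 185th by width, so the broadest and best-scoring site of this group was the one farthest from the gene.

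The second group had the same layout at lower scores. Sites 6 and 7, at 112681390 to 112681619 and 112681677 to 112681926, were 57 bp apart, 230 and 250 bp wide, and began 32.4 and 32.7 kb past the gene. Their scores of 6.27 and 6.45 ranked 2657th and 2605th, so they were the weakest of the set and among the lowest of the list. Site 8, at 112682641 to 112683298, was 658 bp wide with a score of 9.16, 714 bp beyond site 7. Gaps of 82 and 57 bp are shorter than the sonicated fragments of 200 to 700 bp that the labels give. Whether such neighbours are separate binding events was not tested.

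The remaining downstream sites stood farther apart, and 2 of them were among the highest scores of the list. Site 9, the last of the chain, lay at 112687378 to 112688076, 38.4 kb past the gene. It was 699 bp wide, and its score of 14.2 ranked 82nd. Site 10, at 112701066 to 112702153, had the highest score of the set, 14.8, the 53rd of all sites and the 6th of the 184 on chromosome 11. At 1088 bp it was also the broadest of the set, the 23rd widest of all sites and the 2nd widest on that chromosome. Site 11, 3.46 kb further, at 112705613 to 112705719, was the narrowest of the set, with 107 bp and a score of 7.88. Site 12, at 112820881 to 112821525, lay 172 kb past the gene, was 645 bp wide and had a score of 10.8 that ranked 478th.

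Neither upstream site had another within 10 kb, and both were of middling score. Over the whole list, 33.7% of sites had another within 10 kb. Site 2 was 575 bp wide, with a score of 9.64 that ranked 851st. Site 1, at 112191025 to 112191327, was 303 bp wide, had a score of 9.04 and lay 452 kb before the gene. Sites 1 and 2 were 243 kb apart, close to the median gap of 255 kb between adjacent sites of the list. Outside the window, the next site on that side was 803 kb before site 1 (577 bp wide, score 7.57) and the next on the other side 508 kb after site 12 (210 bp wide, score 7.23). The window's limits therefore cut through no group of sites, the outermost members lying 191 and 179 kb inside them.

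As a set, the sites around Sox9 were broad and scored above the middle of the list. Their median score was 9.40, from 6.27 to 14.8, against 8.53 over all sites, and their median width 497 bp, from 107 to 1088 bp, against 291 bp. Of the 12, 9 scored at or above the median of all sites, which by construction 50% of all sites did. At or above the upper quartile, reached by 25% of all sites, were 5 of the 12. Also 5 were 600 bp or wider, against 17.3% of all sites, and these were sites 5, 8, 9, 10 and 12. Among the 100 highest scores, 3.54% of the list, were 3 of the 12. Another site lay within 10 kb of 9 of the 12, against 33.7% of all sites, and within 1 kb of 6 of the 12, against 21.7%. Closeness is what brought the region to attention, so nothing is read from those last counts. No test was made of the widths or scores, because the members were taken with their values known, and because neighbouring sites are not independent.

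Within the set, broader sites tended to score higher, though site 8, at 658 bp, scored only 9.16. The 5 sites narrower than 350 bp scored at most 9.04, and each of the 7 broader ones scored at least 9.16, a limit drawn after the values were seen. The rank correlation of width with score (Spearman's rho) was 0.91 over these 12 sites and 0.57 over all 2828 sites. Both describe sites of a single list, which share their libraries and their calling, and have no p. The top 3, at scores of 14.2 to 14.8, had no neighbour in the set between 10.8 and 14.2.

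**Figure D2:**
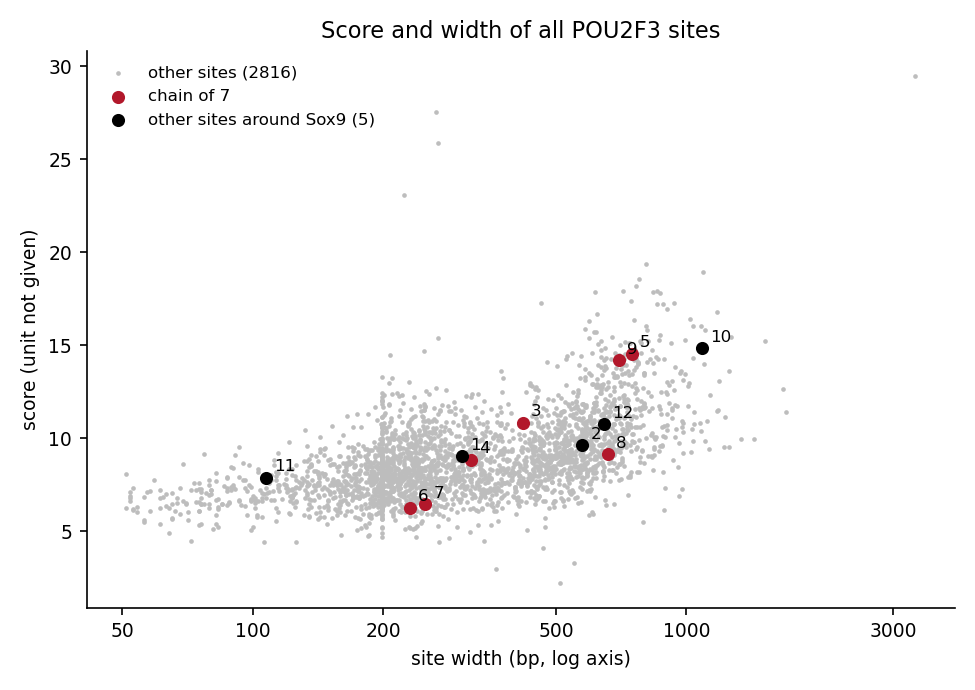
Score (authors' value, unit not given) against width in bp on a log axis for all 2828 sites, with the 7 sites of the chain in red, the other 5 around Sox9 in black and the rest in grey, numbered as along the chromosome. Sites 5, 9 and 10 lie in the upper right part, while sites 6 and 7 lie in the lower part of the cloud.

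Set beside the other runs of close sites, the chain downstream of Sox9 ranked higher in covered bases than in score or in the share of its length covered. Of the 80 chains of 3 or more sites, 2 had 7 members and 6 had at least 6. The 7 sites of the Sox9 chain covered 3323 bp, the most bases of the 80 chains. The next highest was 2592 bp, and the median 1105 bp. As a share of the chain's length, 20.9%, this was only the 26th highest. By span it was 9th, by best score 5th, by median width 20th and by median score 25th. It held 2 of the 100 highest scores (sites 5 and 9), which 1 other chain did too, a run of 3 sites on chromosome 7 at 139004208 to 139014713. Covered bases are the sum of the site widths, so they grow with the number of sites, by which the region was chosen. These ranks have no test, since the chain was known when the region was taken.

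**Figure D3:**
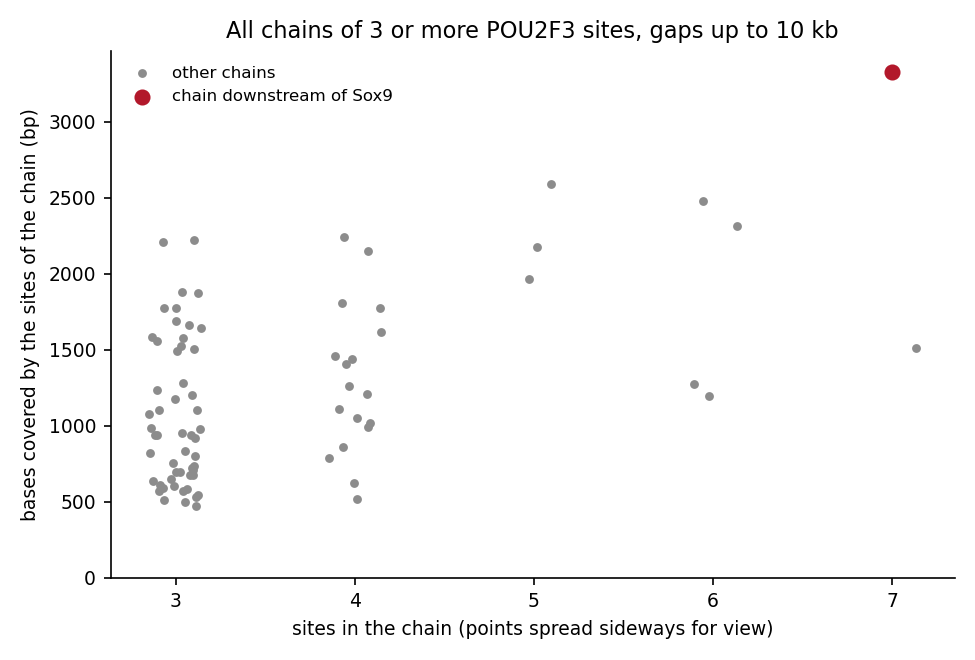
Bases covered by the sites of a chain (vertical axis, bp) against the number of sites in it, 1 point for each of the 80 chains of 3 or more sites. The chain downstream of Sox9 (red) covers 3323 bp, above the 2592 bp of the next.

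The other chain of 7, on chromosome 5 at 14923787 to 14926725, had the same number of sites in a different form. It spanned 2.94 kb, against 15.9 kb at Sox9, with gaps of 76 to 441 bp against 57 to 7073 bp. Its sites were 199 to 232 bp wide, while those at Sox9 were 230 to 748 bp, so the ranges barely overlapped. They covered fewer bases, 1510 bp against 3323 bp, but a larger share of their shorter chain, 51.4% against 20.9% at Sox9. Its scores of 7.46 to 10.3 lay inside the range of 6.27 to 14.6 at Sox9, and it held none of the 100 highest. At the length of the Sox9 run, 33.6 kb, this place on chromosome 5 was the 1 other that held 9 sites, from 14900874 to 14926725, covering 1883 bp against 4518 bp at Sox9. Chains of 6 lay on chromosomes 3 and 7 and at 2 places on X. Those on chromosomes 3 and 7 covered 2478 and 2316 bp with best scores of 13.2 and 13.7, and those on X 1275 and 1198 bp with 14.5 and 10.1.

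High scores also came close together at Sox9. Sites 5, 9 and 10 put 3 of the 100 highest scores within 28.6 kb. At the length of the Sox9 run this was found at 1 other place, also on chromosome 11, at 87256245 to 87284945, where 3 such sites, 531 to 740 bp wide and with scores of 14.4 to 16.3, lay within 28.7 kb. The number of 100 was picked after the scores had been seen, and the difference between these places was not tested.

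Among windows of 1 Mb, the Sox9 window shared its number of sites with one on chromosome 13. It ranked 5th together with that window out of 1202 windows that held a site, whose median was 2 sites. On chromosome 13 the 12 sites ran from 111182762 to 111599110, a span of 416 kb against 631 kb at Sox9. Their longest chain had 3 members, and at most 4 of them fell within 33.6 kb, against 9 at Sox9. Median widths were close, 475 bp there and 497 bp at Sox9, and so was the covered sequence, 6141 and 6041 bp, the highest and second highest of the 60 windows with 6 or more sites. Median scores were 8.48 and 9.40, the 34th and 12th of those 60, and 1 and 3 of the sites were among the 100 highest. The 2 windows thus held alike numbers of sites and bases. At Sox9, 9 of the 12 sites, with 4518 of the 6041 bp, were gathered into 1 run. On chromosome 13 the sites were spread over small groups and single sites. No test was made between the 2 windows, because each is a single place of the same list.

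**Figure D4:**
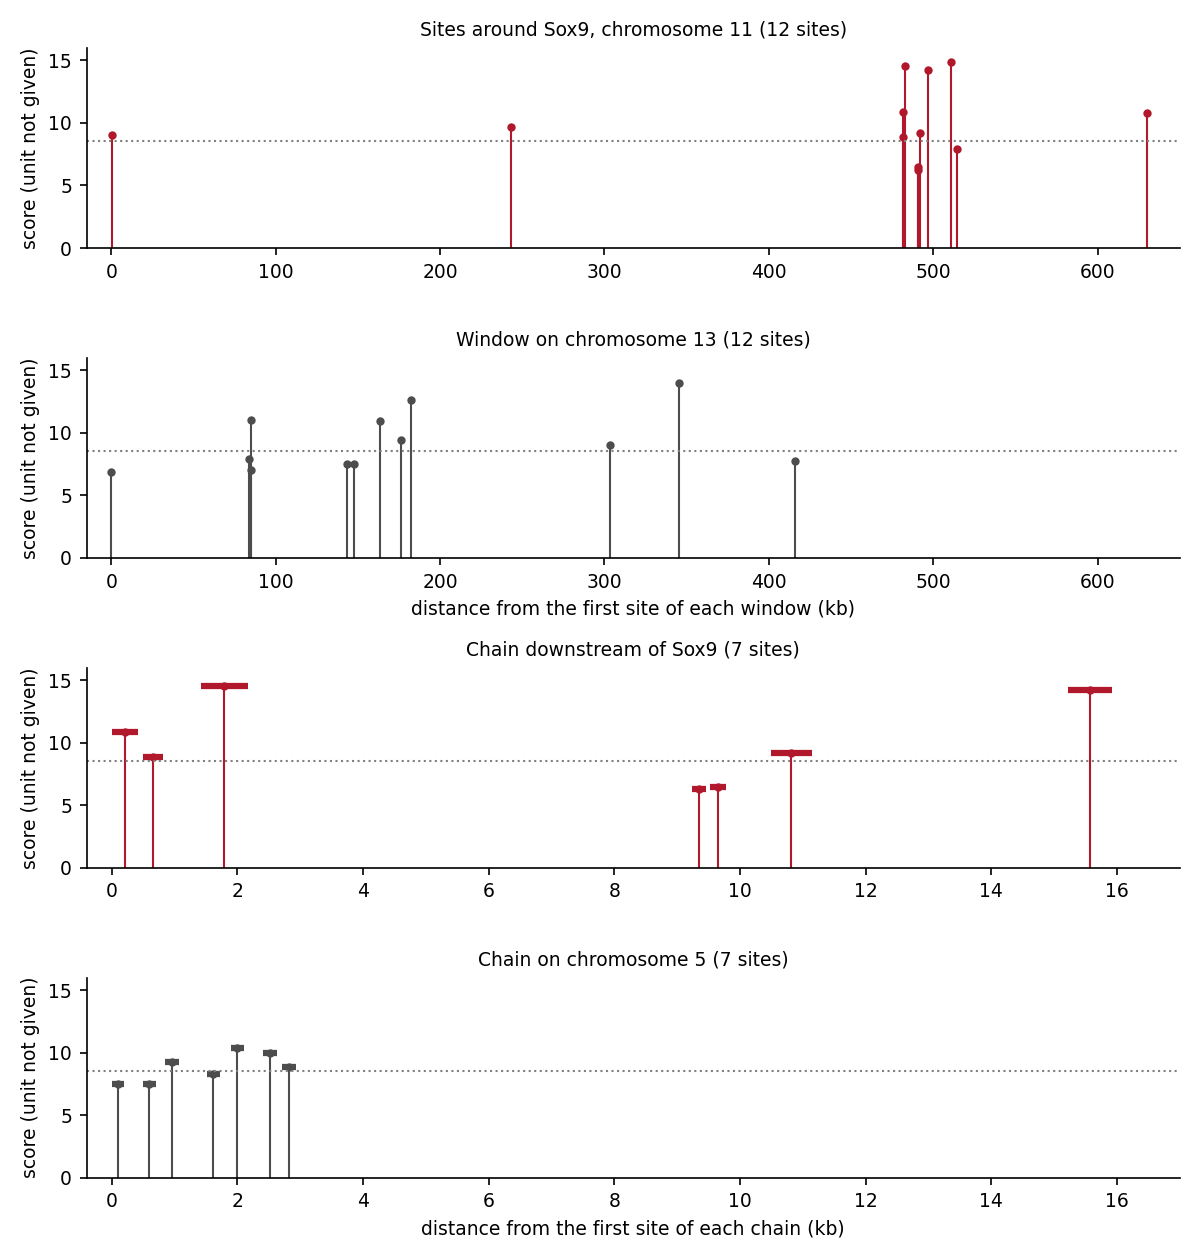
Score (authors' value, unit not given) against distance in kb from the first site, for the 12 sites around Sox9 and the 12 of the window on chromosome 13 (upper pair, same axes), and for the chain of 7 downstream of Sox9 and that on chromosome 5 (lower pair, same axes). Horizontal bars show site width and the dotted line the median score of all sites. At Sox9, 9 of the 12 sites share a run of 33.6 kb, and the chromosome 5 chain fits in 2.94 kb.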

How the data were processed

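POU2F3 binding was profiled by ChIPmentation, in which sequencing adaptors are put in by Tn5 on the beads, from about 10000 sorted cells per the labels' protocols. The authors deposited 1 list of sites without a header, with a score per site in column 5 whose meaning and unit are not given in the sources used here. FastQC, MACS2, Bowtie 0.12.8, SAMtools 1.3.1 and mm9 are named in the submitters' processing notes, without role or order. The control, the threshold and any pooling behind the sites are not given in the sources used here. They can affect the number and width of the sites and whether close ones are split. Read depth per sample is unknown here.

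Sites were placed by midpoint, positions are 1-based, gaps count the bases between 2 sites, and ranks are from the highest down over all 2828 sites. Chains have gaps of at most 10 kb. The Sox9 gene body is a position to the nearest kilobase that came with the region's definition, not from the deposited files. No mm9 sequence was used, so no motif was searched and no sequence is printed. The members, comparisons and limits were chosen with earlier results of these data known. By rule, Sox9, its window's sites, up to 3 protein-coding neighbours per side, the equally full window, the other chain of 7 and chains of 6 were named. The places holding several of the 100 highest scores were named after their values were seen. Lists of tuft and stem cell markers went unused, since no site was assigned to a gene. The chain, merging and window steps were checked on constructed positions with known answers. The tools were pandas 2.3.3, SciPy 1.17.1 and NumPy 2.4.6 in Python 3.11.15, with matplotlib 3.10.9 for figures.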

Additional observations from a re-analysis of the deposited data

How the results depend on the processing

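Of 21 alternative values of 7 results, 11 were equal or, for counts and ranks, within 1.5 times the main value, and 10 moved. The number of sites around Sox9 stayed at 12 with any overlap or with the window centred on the gene. It was 8 after merging of sites within 1 kb, 9 at or above the median score and 5 at or above the upper quartile, which keeps fewer sites by construction. The chain of 7 had 9 sites with gaps of up to 20 kb, spanning 33.6 kb, and 4 with gaps of up to 5 kb, spanning 6.69 kb. It had 5 sites at or above the median score and 3 after merging, so its number of sites depends on counting close sites one by one. The median width rose from 497 to 645 bp at or above the median score and to 672 bp after merging, and the median score from 9.40 to 10.2 after merging, where the best score of merged sites was kept. The nearest site was 23.4 kb from the gene by its midpoint in place of 23.2 kb by its edge. The window ranked 8th, with 11 sites, when windows were shifted by 500 kb, 6th with windows of 500 kb and 7th after merging, in place of 5th. The 6th and 7th ranks were each shared by 3 windows, and the 5th by 2. No paired analysis was possible because the list has no values per sample, and no replicate could be left out for the same reason. Depth and calling threshold are unknown here, so the empty stretch around Sox9 shows only that no site is listed there.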
